A study of Saccharomyces cerevisiae with 6 samples.

Results

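Transcripts of 10 heat shock protein genes of Saccharomyces cerevisiae that lie outside the Hsp70 family were compared between yeast with wild-type histone H2A and yeast with the R78A form of H2A. The genes were HSP10, HSP26, HSP30, HSP31, HSP42, HSP60, HSP78, HSP82, HSC82 and HSP104, which were picked by name with earlier results of these data known. Each had exactly 1 probe set, and none of these probe sets had the suffix used for sequence that several genes share. They are 10 of the 5449 genes tested.

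The 3 control arrays came from yeast with wild-type H2A and the 3 others from yeast with H2A R78A, in which the arginine at position 78 is replaced by alanine; the series calls this residue a sprocket arginine, a histone side chain that reaches into the DNA minor groove on the nucleosome. All cultures grew in rich glucose medium (YPD) at 30 °C to mid-log phase, at an optical density (600 nm) of about 0.5 to 0.7, and the labels describe no heat shock. The labels give no strain background and no detail of how the H2A allele is carried, and do not state whether replicates are separate cultures; the tests therefore rest on a spread between samples that may be only technical. The allele itself cannot be read from these probe sets.

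Signals are linear intensities with a trimmed mean of 500 on each array, so each is relative to the other transcripts on its array. The mutant arrays had a narrower spread of signals, with the 90th percentile of genes at 997.1 to 1050 against 1070 to 1106 in wild type, and the 10th percentile at 121 to 135 against 90.2 to 102. Differences are given on the log2 scale as the mutant minus wild type, from limma fitted on all genes with Benjamini-Hochberg adjustment. A gene is said to have risen or fallen at an adjusted p below 0.05, and the number of arrays limits the precision.

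Heat shock proteins are named for their apparent mass, and most are molecular chaperones. Small heat shock proteins hold unfolding proteins in aggregates from which they can be recovered, Hsp100 disaggregases thread proteins out of those aggregates, Hsp90 matures client proteins such as kinases, and the Hsp60 chaperonin folds proteins inside a closed cage in mitochondria. In yeast the heat shock factor Hsf1 keeps many of them at a high level during normal growth and raises them in heat, while the general stress factors Msn2 and Msn4, which protein kinase A holds inactive in glucose, raise a second, partly overlapping set.

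Of the 10 genes, 5 rose in H2A R78A (HSP30, HSP26, HSP42, HSP31 and HSP78) and 0 fell in limma's moderated test. Over all genes 17.9% rose and 9.18% fell. At an unadjusted p below 0.05 there were 6 higher, with HSP104 added, and 0 lower. The mutant values lay above all wild-type values for the 5 risen genes, as they did for 25.7% of all genes. The median difference of the 10 genes was 0.34 (log2), against 0.02 for all genes tested. At least 1.5-fold rises were seen for 4 of the 10 genes, HSP30, HSP26, HSP42 and HSP31, and for 8.06% of all genes. The 5 genes that did not pass were the Hsp90 pair HSP82 and HSC82, the cytosolic disaggregase HSP104, and the mitochondrial chaperonin genes HSP60 and HSP10.

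**Figure D1:**
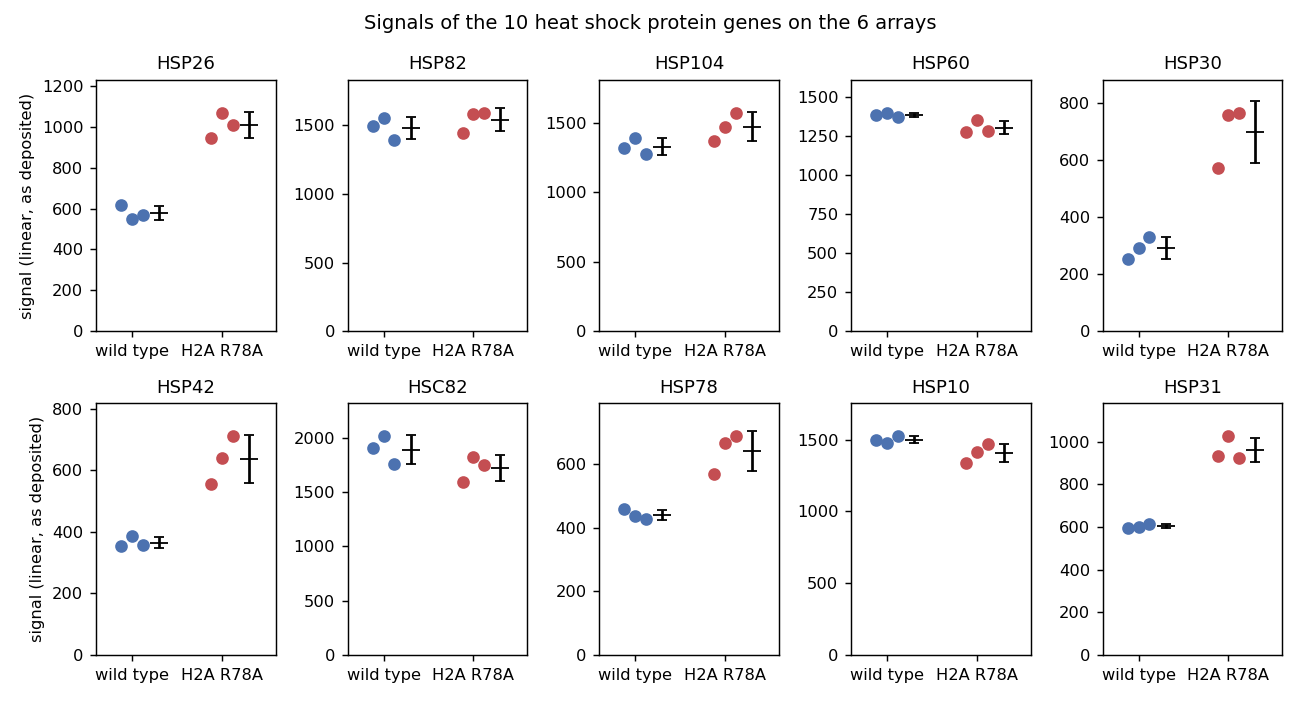
Signal on the linear deposited scale for each of the 10 genes, with 1 point per array (blue, wild type; red, H2A R78A) and the mean ± SD (n = 3) beside each group; every vertical axis starts at 0. The red points lie above all blue points for HSP26, HSP42, HSP78, HSP30 and HSP31, and the groups overlap for HSP82, HSC82 and HSP104.

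Both small heat shock protein genes rose, each by more than 1.5-fold. HSP26 (YBR072W) encodes a large oligomer that binds unfolding proteins and is classically absent or low in growing cells in the absence of stress. Its signal was 616, 547.7 and 567.3 on the wild-type arrays and 945.1, 1069 and 1011 on the mutant arrays. Every mutant array was above every wild-type array, and the difference was 0.81 (standard error 0.07, 1.75-fold, limma adjusted p = 2.75e-05). HSP42 (YDR171W) encodes the other small heat shock protein, which also acts in unstressed cells and gathers misfolded proteins into cytosolic foci. HSP42 gave 352.6, 385.7 and 356.8 in wild type and 556.5, 640.7 and 710.6 in H2A R78A. These groups did not overlap either, with a difference of 0.79 (standard error 0.09, 1.73-fold, limma adjusted p = 1.67e-04). The log2 ratio of HSP26 to HSP42 within an array was 0.66 ± 0.15 in wild type and 0.67 ± 0.14 in the mutant (SD, n = 3), a difference of 0.01 with a standard error of 0.12 (exact permutation test, two-sided, p = 0.9).

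The Hsp100 pair gave unequal differences. HSP78 (YDR258C) encodes the disaggregase of the mitochondrial matrix, and HSP104 (YLL026W) the cytosolic one, which is needed for survival of severe heat and for the propagation of yeast prions. HSP78 gave 457.9, 436.8 and 428 in wild type and 568.8, 666.3 and 687.5 in H2A R78A. All mutant arrays lay above all wild-type arrays, and HSP78 rose by 0.54 (standard error 0.08, 1.45-fold, limma adjusted p = 9.38e-04).

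HSP104 gave 1315, 1391 and 1278 in wild type and 1366, 1471 and 1573 in the mutant. The groups overlapped, since mutant replicate 1 was below wild-type replicate 2. The difference was 0.15, with a 95% interval of 0.00 to 0.29 and a limma adjusted p of 0.116. The call depended on the scaling: HSP104 passed after quantile normalization (0.26, limma adjusted p = 0.0037) and with cyclic loess (0.28, 0.00394), and on the deposited scale with array weights (0.19, 0.0255). The log2 ratio of HSP104 to HSP78 within an array was 1.52, 1.67 and 1.58 in wild type and 1.26, 1.14 and 1.19 in the mutant. The ratio was lower on every mutant array, by 0.39 (standard error 0.06); the exact permutation test gave p = 0.1 (two-sided), the smallest that 3 against 3 arrays allow, and 0.2 after adjustment over the 4 ratios examined. Such a ratio compares changes, not amounts of the 2 transcripts. The ratio difference was smaller after quantile normalization (-0.25) and with cyclic loess (-0.26), with the same direction.

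Neither gene for Hsp90 passed on the deposited scale. HSC82 (YMR186W) is the copy that growing cells express steadily, and HSP82 (YPL240C) the copy that heat raises more strongly; their proteins are nearly identical and share clients. HSP82 gave 1492, 1549 and 1394 in wild type and 1444, 1585 and 1592 in H2A R78A. The groups overlapped, with a difference of 0.06 (95% interval -0.08 to 0.20, limma adjusted p = 0.503). After quantile normalization HSP82 was higher by 0.20 (limma adjusted p = 0.0103) and with cyclic loess also by 0.20 (0.013), while centring each array on its median gave no difference (-8.91e-05).

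HSC82 gave 1905, 2015 and 1755 in wild type and 1592, 1821 and 1748 in the mutant. The groups overlapped here too. The difference of -0.14 (95% interval -0.29 to 0.01, limma adjusted p = 0.159) became 0.01 after quantile normalization (adjusted p = 0.916) and 0.03 with cyclic loess (0.751).

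The ratio of HSP82 to HSC82 within an array had higher values in H2A R78A, in a design too small for the test to pass. The log2 ratio of HSP82 to HSC82 was -0.35, -0.38 and -0.33 on the wild-type arrays and -0.14, -0.20 and -0.13 on the mutant arrays. These values did not overlap, and their difference of 0.20 had a standard error of 0.02 (exact permutation test, two-sided, p = 0.1, the smallest possible, and 0.2 adjusted over 4 ratios). The difference was 0.19 after quantile normalization and 0.17 with cyclic loess, and it stayed between 0.18 and 0.22 when any one array was left out. With nearly identical coding sequences, some of each signal may come from the other gene, which was not tested.

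The mitochondrial chaperonin genes gave small differences whose direction depended on the scaling. HSP60 (YLR259C) encodes the ring-shaped chaperonin and HSP10 (YOR020C) its lid; both are essential for the folding of imported proteins. HSP60 gave 1381, 1400 and 1370 in wild type and 1274, 1350 and 1280 in H2A R78A. HSP10 gave 1501, 1474 and 1524 in wild type and 1341, 1411 and 1469 in the mutant. For both genes every mutant value was below every wild-type value on the deposited scale, a pattern seen for 17.4% of all genes (groups not overlapping and lower).

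The difference was -0.09 for HSP60 (95% interval -0.20 to 0.02, limma adjusted p = 0.221) and -0.09 for HSP10 (-0.21 to 0.03, 0.224), and it turned to 0.04 for each after quantile normalization (0.537 and 0.531) and with cyclic loess (0.581 and 0.531). The log2 ratio of HSP60 to HSP10 overlapped between the groups, at -0.12 ± 0.04 in wild type and -0.11 ± 0.07 in the mutant (SD, n = 3, exact permutation test, two-sided, p = 0.8).

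The largest rise among the 10 genes was that of HSP30. HSP30 (YCR021C) encodes a membrane-spanning protein that restrains the plasma membrane proton pump Pma1 under stress. It gave 251.8, 293.3 and 329.8 in wild type and 573.5, 758.1 and 767.7 in H2A R78A. The lowest mutant value exceeded the highest wild-type value, and the rise was 2.39-fold (log2 1.26, standard error 0.13, limma adjusted p = 6.13e-05), rank 65 among the increases of 5449 genes.

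HSP31 (YDR533C), a protein of the DJ-1 family that detoxifies methylglyoxal, had the tightest wild-type values of the genes that rose. It gave 596.9, 599.9 and 614.4 in wild type and 932.1, 1025 and 924 in the mutant. The groups did not overlap, and HSP31 rose 1.59-fold (log2 0.67, standard error 0.06, limma adjusted p = 4.18e-05). HSP26, HSP42, HSP31 and HSP78 ranked 246, 254, 373 and 512 among the increases.

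The 5 genes that rose had lower mean signals than the 5 that did not, and differences on these arrays went with signal. Mean log2 signals were 8.81 to 9.57 for the former and 10.39 to 10.81 for the latter. Among 593 genes whose mean log2 signal exceeded 10, 1.35% rose and 29.2% fell on the deposited scale, with a median difference of -0.14, which is also the difference of HSC82. Of the 1568 genes between 9 and 10, the range of HSP26, HSP31 and HSP78, 7.59% rose and the median difference was -0.05. Of the 1925 genes from the background level to 9, the range of HSP30 and HSP42, 17.6% rose and the median was 0.05; the background level is the 25th percentile of mean log2 signals, 7.86. Below it lay none of the 10 genes, and 37.4% of the 1363 genes there rose, with a median of 0.28.

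After quantile normalization, the medians of these classes, from bright to dim, were -0.01, -0.03, -0.03 and -0.05. Under that scaling 7 of the 10 genes were higher and 0 lower, beside 10.5% higher and 9.82% lower over all genes, and with cyclic loess also 7 and 0, beside 11.6% and 7.32%. The 5 genes that rose on the deposited scale changed little, HSP26 to 0.84, HSP42 to 0.76, HSP78 to 0.51, HSP30 to 1.21 and HSP31 to 0.70 after quantile normalization.

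**Figure D2:**
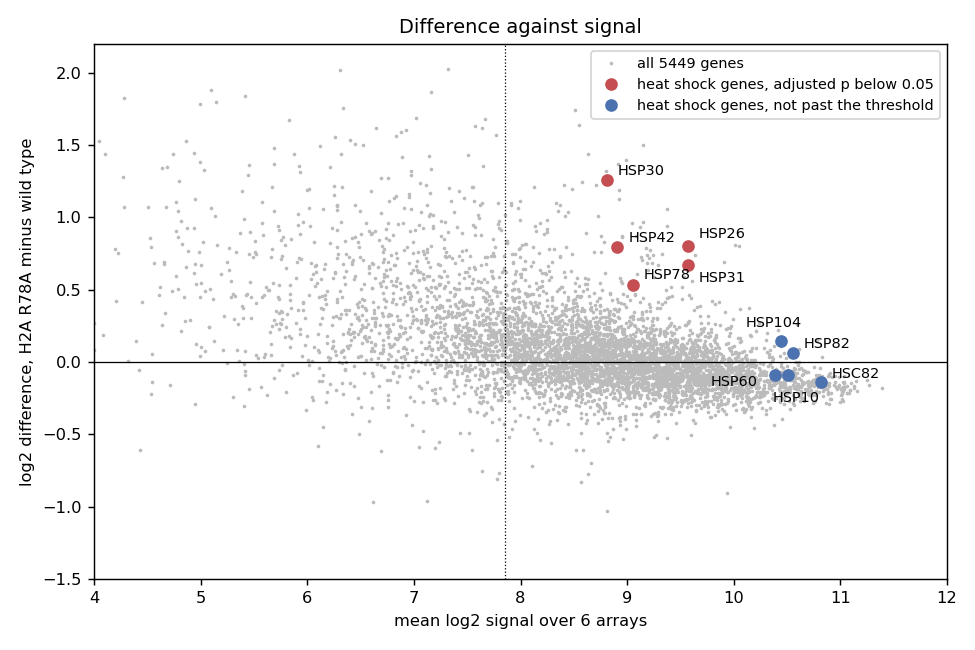
Log2 difference (H2A R78A minus wild type) against mean log2 signal over the 6 arrays, with all 5449 genes in grey and the 10 heat shock genes in red (limma adjusted p below 0.05) or blue; the dotted line marks the background level of 7.86, and 33 genes lie outside the axes. The red genes lie in the upper part of the cloud at signals of 8.81 to 9.57, and the blue genes lie near its bright end.

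**Figure D3:**
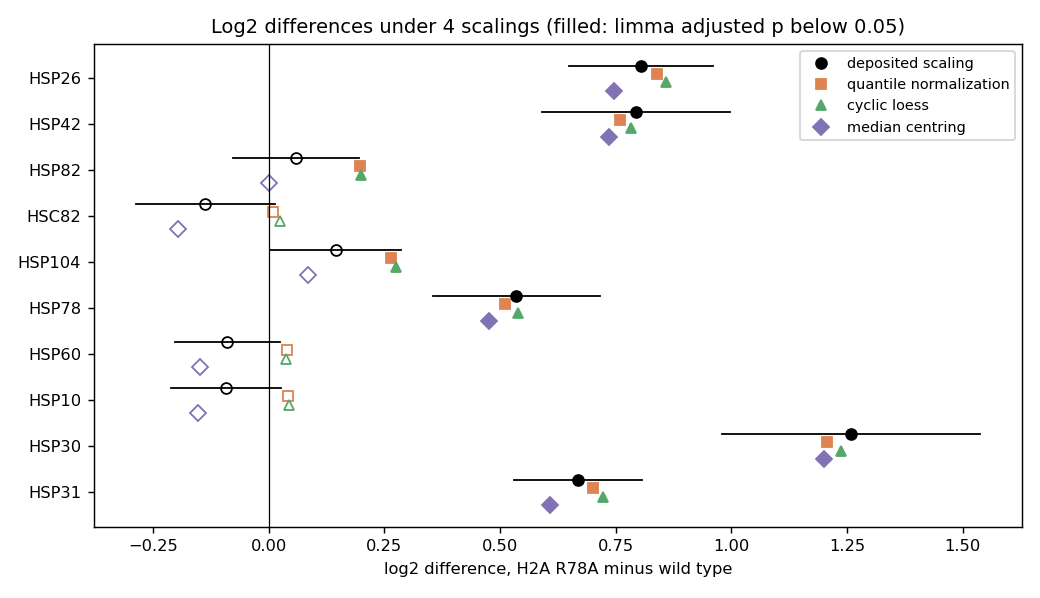
Log2 difference of each of the 10 genes under the deposited scaling (circles, with the 95% interval as a line), quantile normalization (squares), cyclic loess (triangles) and median centring (diamonds), filled where the limma adjusted p is below 0.05. The 5 genes that rose are filled under all 4 scalings, and HSP82 and HSP104 are filled under quantile normalization and cyclic loess. HSC82, HSP60 and HSP10 change sign between scalings, as does HSP82, whose value with median centring is -8.91e-05.

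The mutant arrays did not carry the rises equally. Mutant replicate 1 had the lowest mutant signal for 9 of the 10 genes, all but HSP31, and it was the lowest mutant array for 26.7% of all genes. Without that array the 5 rises were 1.40 for HSP30, 0.89 for HSP42, 0.85 for HSP26, 0.69 for HSP31 and 0.62 for HSP78. HSP104 was then at 0.20 (limma adjusted p = 0.058).

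Partner genes of these chaperones were counted from lists, beside the shares over all genes of 17.9% higher and 9.18% lower. Of 12 Hsp90 co-chaperone genes, 1 rose and 0 fell in limma's test (2 higher and 2 lower at an unadjusted p below 0.05), and their median difference was -0.10; a share of 1 in 12 is no higher than that over all genes. The one that rose was TAH1, part of the R2TP complex that works with Hsp90 in assembling other complexes, from 332 ± 19.2 to 470 ± 15.7 (SD, n = 3, log2 0.50, limma adjusted p = 7.89e-04). With the replicate number as a block 2 rose and 3 fell. Without mutant replicate 1 the counts were 2 and 0, and without mutant replicate 2 or wild-type replicate 3 they were 1 and 1. Of 8 genes of the cytosolic chaperonin, which folds actin and tubulin, 0 rose and 1 fell (0 higher and 4 lower at an unadjusted p below 0.05), with a median of -0.15. Most of the 8 had mean log2 signals above 10, a class in which 29.2% of genes fell and the median was -0.14. After quantile normalization the median of the 8 was -0.02, with 0 higher and 0 lower. The fallen gene was TCP1 (1278 ± 61.3 to 1081 ± 37.1, log2 -0.24, limma adjusted p = 0.0123), whose call ended after quantile normalization (-0.14, 0.0576), with cyclic loess (-0.13, 0.0818) and without mutant replicate 3 (-0.24, 0.0503). With the replicate block 4 of the 8 fell, with median centring 5 fell, and without mutant replicate 2 or wild-type replicate 3 there were 3.

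Genes of the cytosolic Hsp70, Hsp40 and Hsp110 partners, which pass aggregated proteins to Hsp104, rose in 3 of 10 cases and fell in 1 (3 higher and 4 lower at an unadjusted p below 0.05), with a median of -0.08, beside 17.9% higher and 9.18% lower over all genes. The stress-induced Hsp70 genes SSA3 (285.6 ± 44.2 to 708 ± 31.1, SD, n = 3, log2 1.32) and SSA4 (460 ± 20.6 to 959 ± 60.4, log2 1.06) and the Hsp110 gene SSE2 (log2 0.50) rose, at limma adjusted p-values of 2.09e-05, 5.98e-06 and 0.00295. SSA2, a steadily expressed Hsp70 gene, lies in the class with mean log2 signals above 10, where 29.2% of genes fell. It fell by 0.25 on the log2 scale, with groups that overlapped (limma adjusted p = 0.0464). That call ended after quantile normalization (-0.09, adjusted p = 0.355) and cyclic loess (-0.08, 0.369), and without either of wild-type replicates 1 and 2 and mutant replicates 1 and 3 (0.113 to 0.165), and also with the background filter, an offset of 50 or no variance trend (0.0512 to 0.105). With the replicate block or median centring 3 rose and 4 fell, and 3 fell without mutant replicate 2 and 2 without wild-type replicate 3.

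The list of the mitochondrial Hsp70 machinery includes the import motor and folding partners of Hsp60 and Hsp78, among other genes. Of its 9 genes, 1 rose and 0 fell in limma's test (1 and 0 also at an unadjusted p below 0.05), with a median of 0.05. ECM10, a minor mitochondrial Hsp70 gene with a dim probe set, lies below the background level, where 37.4% of genes rose with a median of 0.28. It rose from 137 ± 13.9 to 191 ± 10.7 (SD, n = 3, log2 0.49, limma adjusted p = 0.00759). Its call ended after quantile normalization (0.21, 0.225) and with cyclic loess (0.25, 0.152). On the list 2 genes rose with the replicate block, array weights or low values raised, or without mutant replicate 2.

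Of the homologues of HSP31 and HSP30, 3 of 5 were measured (HSP32 and HSP33 were not analysed here), and 2 rose and 0 fell in limma's test (2 and 0 at an unadjusted p below 0.05). Both risen genes lie below the background level, where 37.4% of genes rose. SNO4, an HSP31 homologue, went from 108 ± 3.89 to 178 ± 6.95 (SD, n = 3, log2 0.72, limma adjusted p = 4.60e-04; 0.38 after quantile normalization), but its probe set is marked as sharing sequence with other genes. YRO2, an HSP30 homologue, was also dim (95.6 ± 21.3 to 141 ± 8.42, log2 0.58, limma adjusted p = 0.0189), and its call ended after quantile normalization (0.21, 0.287), with cyclic loess (0.27, 0.165) and without wild-type replicate 1 or 2 or mutant replicate 1 or 3 (0.0548 to 0.0653). MRH1, the other HSP30 homologue, gave a difference of -0.01 (limma adjusted p = 0.969) and was named after its value had been seen.

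Targets of the 2 transcription programmes were counted outside the 10 genes. The 10 genes were not assigned to either programme here, so each count leaves out any of them that belong to it. The counts therefore do not say which programme the risen genes among the 10 belong to. Of 13 genes of the core Hsf1 regulon outside the 10 genes, 1 rose and 1 fell (2 higher and 4 lower at an unadjusted p below 0.05), with a median of -0.10. This is no separate set, since 10 of the 13 also stand on the co-chaperone, cytosolic or mitochondrial Hsp70 lists above. BTN2, which encodes a protein that sequesters misfolded proteins, rose from 924 ± 24.4 to 1100.3 ± 119 (SD, n = 3, log2 0.25, limma adjusted p = 0.0375), and SSA2 fell as given above. The BTN2 call was lost in 5 of the 6 fits that omitted an array, all but the one without mutant replicate 1 (limma adjusted p = 0.0518 to 0.155), with median centring (0.19, 0.116) and with no variance trend (0.25, 0.0798). All of the 13 but CUR1 had mean log2 signals above 9. On the deposited scale the median over all genes was -0.05 between 9 and 10 and -0.14 above 10. Quantile normalization gave 2 higher and 0 lower, with a median of -0.04 for the 13 genes. Median centring gave 0 and 3, and the replicate block 3 and 5. The number that fell was 3 without mutant replicate 2, 2 without wild-type replicate 3 and 0 without any other array; the number that rose was 2 without mutant replicate 1 and 0 without any other array.

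Of 20 Msn2 and Msn4 targets outside the 10 genes, 19 rose and 0 fell in limma's test (19 and 0 at an unadjusted p below 0.05), with a median of 0.73. Over all genes 17.9% rose. RTC3 rose from 339.1 ± 25.7 to 959 ± 90.6 (SD, n = 3, 2.83-fold), the catalase gene CTT1 from 66.9 ± 8.57 to 161 ± 18.8 and the glycogen phosphorylase gene GPH1 from 186 ± 29.1 to 428 ± 47 (2.31-fold), with limma adjusted p-values of at most 9.04e-05. CTT1 is dim, with both means below the background level, so no fold is given; its log2 difference of 1.27 was 0.88 after quantile normalization, 0.85 with an offset of 50 and 0.73 with low values raised. The wild-type mean of GPH1 also lies below the background level. Its log2 difference of 1.21 was 1.07 after quantile normalization and 1.02 with an offset of 50. Quantile normalization left 18 of the 20 as risen and 0 as fallen, and their median at 0.68. With the background filter 17 of the 20 were tested, of which 16 rose and 0 fell. TKL2, a transketolase gene, did not pass on the deposited scale (0.25, limma adjusted p = 0.196) and was named after its value had been seen. These targets were listed from general knowledge with earlier results of these data known, so their direction is not independent evidence, and SSE2 stands on another list too.

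The genes for the factors and their regulators were measured too. Of 7 regulator genes 3 rose and 0 fell in limma's test (3 and 0 at an unadjusted p below 0.05), with a median of 0.13. All 3 lie below the background level, where 37.4% of genes rose with a median of 0.28. HSF1 went from a mean signal of 897 to 938 (log2 0.07, limma adjusted p = 0.595) and MSN2 from 197 to 211 (0.09, 0.469); these 2 genes were named after their values had been seen. GAC1, RIM15 and MSN4 were higher by 0.69, 0.55 and 0.35 (limma adjusted p = 0.0219, 0.00827 and 0.0421). After quantile normalization these were 0.02, 0.19 and 0.07 (adjusted p = 0.933, 0.383 and 0.660) and 0 of the 7 passed, as with cyclic loess. The GAC1 and MSN4 calls also ended without wild-type replicate 1 or 2 or mutant replicate 1 or 3 (0.0587 to 0.158), which left 1 of the 7 called, and the MSN4 call with median centring (0.29, 0.0649).

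**Figure D4:**
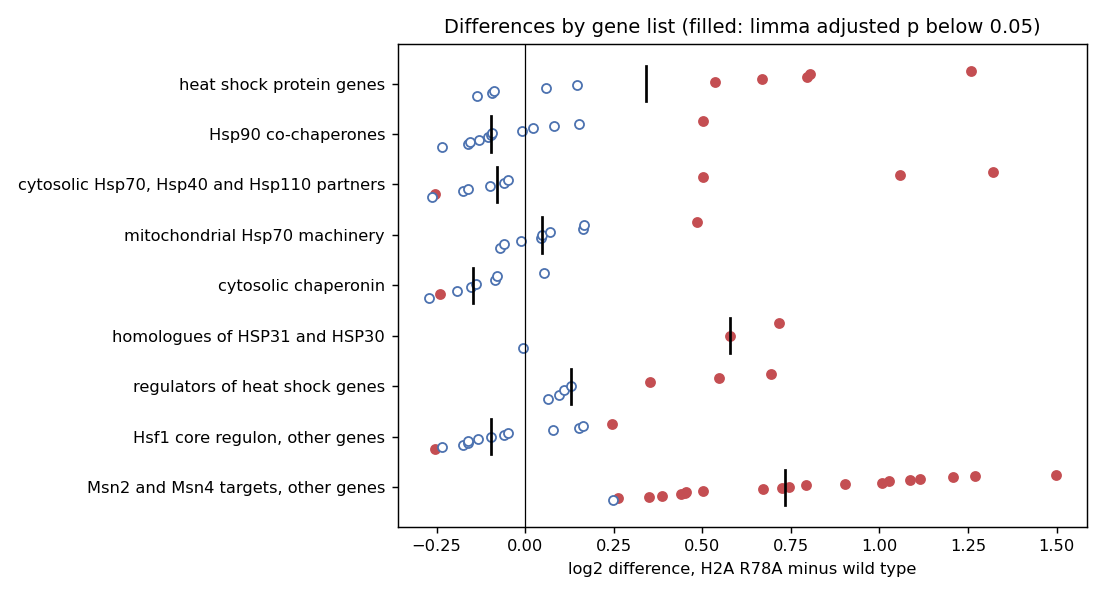
Log2 difference (H2A R78A minus wild type) of every measured gene of the 10 heat shock protein genes and of 8 related lists, with 1 point per gene, filled red where the limma adjusted p is below 0.05, and a black bar at the list's median. On the deposited scale shown, the median of the Msn2 and Msn4 targets lies at 0.73 and that of the other core Hsf1 genes at -0.10. After quantile normalization these medians were 0.68 and -0.04. The 10 heat shock protein genes, which were not assigned to either programme, spread from -0.14 to 1.26.

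The genes whose log2 signals followed HSP30 most closely over the 6 arrays were YLR225C, YBR053C, SPG5, GPH1 and GOR1, with Pearson r of 0.995, 0.994, 0.991, 0.991 and 0.990 among 4085 other genes above the background level. All share the separation of the 2 groups, which sets most of such a correlation over so few arrays, so it is a description only. Their own differences were 0.56, 0.25, 0.87, 1.21 and 1.09.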

How the data were processed

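The values are probe set intensities from 6 one-colour Affymetrix arrays hybridised with biotin-labelled cRNA, as deposited by the authors; MAS5 and limma are named in the submitters' processing notes, without versions. The deposited intensities are linear, and every array has a mean of 500 once 2% of values are trimmed from both ends. Here log2 was taken with no further normalization. Of 5900 probe sets, 5498 had 1 gene each (12 symbols updated through the RefSeq table of assembly R64), and the brightest probe set per gene left 5449 genes; 137 Affymetrix controls and 265 other probe sets without a gene were left out.

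The test was limma (version 3.58.1, R 4.3.3; lmFit, eBayes with an intensity trend, two-sided, Benjamini-Hochberg over all genes, threshold 0.05). Paired genes were compared by the exact permutation test on within-array log2 ratios. Counts of list members carry no test of their own.

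The groups share replicate numbers. After group means had been removed, same-numbered arrays of the 2 groups correlated at 0.206, 0.383 and 0.427 over genes. Arrays of the 2 groups with other numbers correlated at -0.449 to 0.154. The labels do not say that the numbers mark a shared batch. The main fit and the permutation tests did not use the numbers. A fit with the replicate number as a block was an alternative, and it changed no call of the 10 genes. Other alternatives were 3 further scalings, a background filter, raised low values, an offset of 50, mean probe sets, other variance models, array weights and leaving out each array.

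The members and lists were chosen with earlier results of these data known. All 10 members are named, and from each other list the up to 3 called genes that differed most, or 1 gene where none was called; others are said to be named after their values were seen. The 5 genes most correlated with the member of largest difference are also named.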

Additional observations from a re-analysis of the deposited data

How the results depend on the processing

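Each of the 10 genes was refitted under 18 alternatives. Of the 180 values, 163 kept direction and side of the threshold, 7 passed where the reported value had not, and 10 changed sign. HSP26, HSP30, HSP31, HSP42 and HSP78 kept direction and call under all 18, with log2 differences of 0.75 to 0.86, 1.13 to 1.40, 0.61 to 0.72, 0.71 to 0.89 and 0.48 to 0.62. The count of higher members was 5 to 7 and of lower members 0 under every alternative. The sign changes were those of HSP10 (0.0413 after quantile normalization, with or without the replicate block, and 0.0433 with cyclic loess), HSP60 (0.0392 and 0.0370), HSC82 (0.00932 and 0.0257) and HSP82 with median centring (-8.91e-05). The replicate block left all calls of the 10 genes as reported.

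Over all genes, 976 were higher and 500 lower. Higher genes numbered 573 after quantile normalization, 632 with cyclic loess and 419 with the background filter, which tests fewer genes. They numbered 1340 with array weights, 1334 with low values raised and 1292 with the replicate block. When 1 array was left out, higher genes ranged from 683 to 1085. Lower genes numbered 875 with median centring, 312 without a variance trend, 920 with array weights, 857 with the replicate block and 839 with the replicate block and quantile normalization. When 1 array was left out, lower genes ranged from 194 to 601, with 228 without wild-type replicate 1, 308 without wild-type replicate 2, 228 without mutant replicate 1 and 194 without mutant replicate 3. The cause was not tested.

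The ratio of HSP60 to HSP10 differed by -0.00218 after quantile normalization, -0.00633 with cyclic loess and -0.0204 to 0.0466 with an array left out, against 0.00348 as reported. That of HSP26 to HSP42 ranged from -0.0665 to 0.0916 with an array left out. Genes outside the 10 whose signals lie below the background level are the least certain here.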
